A study of Mus musculus with 2 samples.

Results

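The enzymes that write, copy and remove DNA methylation were examined in RNA-seq libraries of whole testes from 9-day-old (P9) mice. The group comprised 10 of the 39695 gene entries of the files. They were *Dnmt1* and *Uhrf1* for maintenance, *Dnmt3a*, *Dnmt3b* and *Dnmt3l* for de novo methylation, *Tet1*, *Tet2* and *Tet3* for oxidation of methylcytosine, *Tdg* for excision of its oxidised forms, and *Gm9855*, an annotated copy of *Tdg*. Members were taken by gene symbol, with Ensembl identifiers of the files matched to GENCODE M21 on GRCm38. The list was chosen by function, but with the RPKM ratios of these same libraries known, and *Gm9855* was selected on its own RPKM values and its likeness to *Tdg*. Every ratio below is therefore a description and none is a test.

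There was 1 library from control testes and 1 from Bcas2F/-;Vasa-Cre testes, which the labels write Bcas2F/-;V-cre. BCAS2 is a component of the Prp19 complex of the spliceosome. Per the methods of the study, controls carried 1 floxed and 1 deleted *Bcas2* allele without Cre, so the deleted allele was common to both groups. *Vasa-Cre* is active in germ cells, so that Sertoli, Leydig and other somatic cells of the same testes keep the floxed allele. The labels give C57BL/6 as strain, whereas the methods describe a mixed background. How many mice gave RNA to a library is not given in the sources used here.

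DNA methylation of mammals is copied after replication by DNMT1, which UHRF1 brings to hemimethylated sites. New methylation is laid down by DNMT3A and DNMT3B, with DNMT3L as a cofactor without activity of its own, and in the male germ line most of it is placed before birth, in prospermatogonia. TET enzymes oxidise methylcytosine, and the glycosylase TDG removes the later oxidation products for base excision repair. At P9 the seminiferous cords hold dividing spermatogonia, the first cells close to meiosis, and many Sertoli cells.

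In the Bcas2F/-;Vasa-Cre library *Dnmt1*, *Uhrf1* and *Dnmt3b* were each about 1.4-fold lower than in the control, by 1.40-, 1.41- and 1.39-fold. *Dnmt3a*, *Tet1*, *Tet2* and *Tet3* were higher by 1.08- to 1.23-fold. *Tdg* was 1.52-fold higher while its copy *Gm9855* was listed at 0, and the summed signal of both was 1.14-fold higher. These folds are ratios of RPKM + 1, where RPKM is the number of reads per kilobase of gene, scaled to the counted reads of the library. The added 1 makes the ratio of a low gene smaller. In whole testes, fewer cells of a type and less RNA per cell cannot be told apart in any of these values.

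Depth was close in both, with inferred totals of 19918750 counted reads for the control and 19331687 for the Bcas2F/-;Vasa-Cre library, a ratio of 1.03. These totals were inferred from the RPKM values, and the paper reports higher numbers of clean and mapped reads. Ratios were taken where the mean RPKM of both libraries was 1 or more, which left 14831 genes, and their median log2 ratio was 0.015. All 10 members passed this minimum. Beside the ratio of RPKM + 1, the reads behind each value were inferred from a gene length that gave whole numbers in both libraries. For every member more than 1 length did so, and the one nearest the annotated mean was taken. Read numbers, interval widths, and sums or ratios across genes rest on that choice, whereas the log2 ratio of reads of a single gene does not. A 95% Clopper-Pearson interval of the log2 ratio of reads is given. Such an interval covers counting error only, and with 1 library for each genotype no difference has a replicate check. The targeted gene *Bcas2*, on chromosome 3 from 103171655 to 103179166 of GRCm38, had 39.5 RPKM (1410 reads) in the control and 25.7 RPKM (888 reads) in the Bcas2F/-;Vasa-Cre library. Its log2 ratio was −0.60, and whole-testis RNA also holds transcripts of somatic cells, in which the Cre is not active.

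More than 1.5-fold lower were 251 of all genes (1.69%) and more than 1.5-fold higher were 233 (1.57%). Of the 10 members, 1 (*Gm9855*) was past 1.5-fold lower and 1 (*Tdg*) past 1.5-fold higher. Past 2-fold lower there was 1 member, again *Gm9855*, against 56 of all genes (0.378%). No member was past 2-fold higher, against 63 of all genes (0.425%). Any lower value was seen for 5 members and any higher value for 5, against 6873 (46.3%) and 7958 (53.7%) of all genes. The counting interval lay wholly below 0 for 4 members and wholly above 0 for 5, against 2574 (17.8%) and 2855 (19.8%) of the 14423 tested genes with recovered reads. Such an interval narrows as reads increase, so that these counts depend on read numbers, which were not matched between members and all genes. The median log2 ratio of the members was −0.03, and that of the 9 protein-coding members was 0.11.

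*Gm9855* and *Tdg* are described first, because their values cannot be read apart. *Tdg* lies on the plus strand of chromosome 10 from 82629828 to 82650799. *Gm9855* lies on the minus strand of the same chromosome from 42054113 to 42055306 and is annotated as a processed pseudogene, an intronless copy of a messenger RNA set back into the genome. Its 1 exon matched the whole coding sequence of *Tdg*, 1194 bases or 398 codons with the stop, without a gap. The match held 9 differences, an identity of 99.2%. The copy began with the start codon, and 0 stop codons stood in frame before its last codon. Counting from 1 at the first base of the start codon, with the *Tdg* base first and the *Gm9855* base last, the differences were A98C, A855G, G877A, G879C, T993C, T1056C, G1084A, A1090G and G1101A. Between the first and the second of them both genes were identical over 756 bases, from position 99 to 854.

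Stretches of the coding strand that hold 7 of these differences are shown. Within the matched part a read can be told to one gene or the other by its own bases only where it covers such a base. The paper describes paired-end reads, so that the mate of a read may also place it. Capitals mark the differing bases. The *Gm9855* stretches lie on the minus strand of GRCm38 at chr10:42055182-42055211, chr10:42054425-42054454 and chr10:42054196-42054225.
Tdg, coding bases 96 to 125: cgAagacgctcctgtccaggaacctgcacc
Gm9855, same bases: cgCagacgctcctgtccaggaacctgcacc
Tdg, coding bases 853 to 882: caActgaaaggcattgaacgcaacGcGgac
Gm9855, same bases: caGctgaaaggcattgaacgcaacAcCgac
Tdg, coding bases 1082 to 1111: cgGcccccAgcgatgttccGaatgggcagt
Gm9855, same bases: cgAcccccGgcgatgttccAaatgggcagt

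Of the 1095 windows of 100 bases in this coding sequence, 671 (61.3%) held no difference. These windows take no account of mates, so that the share of read pairs that fit both genes was not measured. The matched part was 34.1% of the longest *Tdg* transcript, and the rest of that transcript has no counterpart in the annotated exon of *Gm9855*. Genomic sequence beside that exon was not compared with *Tdg*. How the counting treated reads that align to both places is not given in the sources used here.

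*Gm9855* had 13.9 RPKM in the control and 0 in the Bcas2F/-;Vasa-Cre library. *Tdg* had 40.8 RPKM (996 reads) in the control and 62.4 RPKM (1479 reads) in the Bcas2F/-;Vasa-Cre library. By RPKM *Tdg* was the higher of the pair in both libraries, and the copy was listed above 0 in the control alone. The log2 ratio of *Tdg* was 0.60 by RPKM + 1 and 0.61 by reads, with a counting interval from 0.50 to 0.73 that lies on both sides of 1.5-fold. Of 4869 genes at a similar level, with mean RPKM between 20 and 100, 0.144% were as high or higher.

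The annotated length of *Gm9855* gave no whole number of reads. The nearest length that did, 1265 bases, gave 350 reads in the control, and its neighbours of 1012 and 1518 bases gave 280 and 420. With 350 reads, and 3 reads set as a floor for a library at 0, *Gm9855* was 113-fold lower in the Bcas2F/-;Vasa-Cre library. The counting interval of its log2 ratio of reads reached up to −6.52, a smaller difference than that. Fewer reads in the control would make both smaller. With 350 reads, *Gm9855* held 26.0% of the reads of the pair in the control (Clopper-Pearson 95% interval 23.7% to 28.4%). The share would be smaller with 280 reads and larger with 420, and the interval does not cover that choice. In the Bcas2F/-;Vasa-Cre library *Gm9855* held 0 of 1479 reads, where the floor of 3 reads would be 0.203%.

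The sum over both genes was 54.6 RPKM in the control and 62.4 RPKM in the Bcas2F/-;Vasa-Cre library, a log2 ratio of 0.19. In reads it was 1346 and 1479, a log2 ratio of 0.18 with a counting interval from 0.07 to 0.29. With 280 or 420 reads for *Gm9855* the log2 ratio of the reads was 0.26 or 0.11. The sum was therefore higher in the Bcas2F/-;Vasa-Cre library at each of these lengths, but by less than *Tdg* on its own. At the depth of the control, *Tdg* had 1524 reads in the Bcas2F/-;Vasa-Cre library, 528 more than in the control itself, against the 350 reads of *Gm9855*. Per kilobase of the longest transcript the control held 284 reads of *Tdg* and, with its 350 reads, 293 of *Gm9855*. Whether these reads came from the copy or from *Tdg* was not tested.

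**Figure D1:**
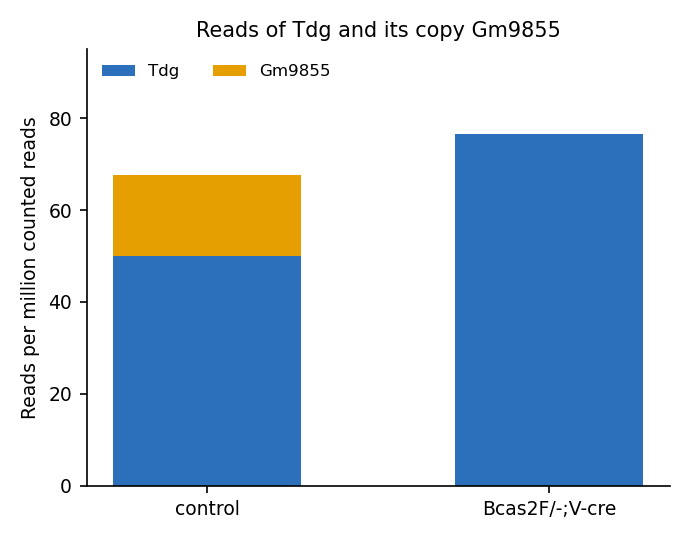
Stacked bars give the reads of *Tdg* (blue) and *Gm9855* (orange) per 1000000 counted reads in the control and the Bcas2F/-;Vasa-Cre library, 1 library each. With 350 reads taken for *Gm9855* in the control, the orange part is 26.0% of the control bar. It is missing from the other bar, whose full height is 1.13-fold that of the control.

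Other copies of *Tdg* carried almost no reads. *Tdg-ps*, on chromosome 15 from 82516311 to 82519278, matched *Tdg* at 98.7% over 2968 bases and had 0 reads in the control and 1 in the Bcas2F/-;Vasa-Cre library. *Gm5597*, on chromosome 7 from 76244746 to 76245938, matched at 99.3% over 1193 bases and was listed at 0 in both. Over the stretch that corresponds to *Gm9855*, *Tdg-ps* had 14 differences from *Tdg*, of which 5 were shared with *Gm9855*. All 4 loci together had 1346 and 1480 reads. At its 3′ end *Tdg* also overlaps *Glt8d2* on the opposite strand (6.38 RPKM in the control, 5.26 RPKM in the Bcas2F/-;Vasa-Cre library), and the kit named in the labels is not stated to mark strand.

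The maintenance genes were lower in the Bcas2F/-;Vasa-Cre library. *Dnmt1*, the methyltransferase that copies methylation onto the new strand, lies on the minus strand of chromosome 9 from 20907209 to 20959888. It had 34.2 RPKM (3743 reads) in the control and 24.1 RPKM (2557 reads) in the Bcas2F/-;Vasa-Cre library. The log2 ratio was −0.49 by RPKM + 1 and −0.51 by reads (counting interval −0.58 to −0.43). *Uhrf1*, whose protein binds hemimethylated CpG sites, lies on the plus strand of chromosome 17 from 56303321 to 56323486. It had 51.0 RPKM (2290 reads) in the control and 35.9 RPKM (1564 reads) in the Bcas2F/-;Vasa-Cre library, a log2 ratio of −0.50 by RPKM + 1 and −0.51 by reads (counting interval −0.60 to −0.41). As low or lower were 1.11% of the genes at that level for *Dnmt1* and 1.05% for *Uhrf1*. The ratio of *Uhrf1* to *Dnmt1* reads was 0.612 in both libraries. *Gm5648*, an X-linked processed copy of *Uhrf1* from 121334988 to 121336574 with 98.3% identity, was listed at 0 in both.

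The genes of de novo methylation differed in direction. *Dnmt3a*, on the plus strand of chromosome 12 from 3806007 to 3914443, had 90.9 RPKM (4210 reads) in the control and 98.4 RPKM (4422 reads) in the Bcas2F/-;Vasa-Cre library, a log2 ratio of 0.11 by reads (counting interval 0.05 to 0.18). A ratio this high was common, with 22.3% of the genes of its level at or above it. *Dnmt3b*, on the plus strand of chromosome 2 from 153649450 to 153687730, had 21.4 RPKM (1508 reads) and 15.1 RPKM (1032 reads), a log2 ratio of −0.50 by reads (counting interval −0.62 to −0.39). Of 4652 genes with mean RPKM between 5 and 20, 2.43% were as low or lower. The ratio of *Dnmt3a* to *Dnmt3b* reads was 2.79 in the control and 4.28 in the Bcas2F/-;Vasa-Cre library. The ratio of *Dnmt3b* to *Dnmt1* reads was 0.403 and 0.404, so that *Dnmt3b* differed between the libraries by nearly the same factor as *Dnmt1* and *Uhrf1*.

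*Dnmt3l*, on the plus strand of chromosome 10 from 78041947 to 78063622, was the lowest member in the control. It had 1.38 RPKM (33 reads) in the control and 1.12 RPKM (26 reads) in the Bcas2F/-;Vasa-Cre library. Its log2 ratio of reads of −0.30 had a counting interval from −1.10 to 0.48, and a difference was not detectable at this depth. *Dnmt3c*, a rodent copy of *Dnmt3b* that acts on young retrotransposons in the male germ line, begins 8921 bases downstream of *Dnmt3b*. Its transcript matched *Dnmt3b* at 89.2% over 93.7% of its 2223 bases. It was listed at 3.24 RPKM in both libraries, with 143 reads in the control and 139 in the Bcas2F/-;Vasa-Cre library. The antisense genes *Dnmt3aos* (0.0362 and 0.0373 RPKM) and *Dnmt3bos* (0.210 and 0.288 RPKM) were close to 0.

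All 3 TET genes were higher in the Bcas2F/-;Vasa-Cre library, by small amounts. *Tet3*, on the minus strand of chromosome 6 from 83362373 to 83459084, was the most abundant, with 22.7 RPKM (3033 reads) in the control and 25.9 RPKM (3359 reads) in the Bcas2F/-;Vasa-Cre library. The log2 ratio of its reads was 0.19 (counting interval 0.12 to 0.26). *Tet1*, on the minus strand of chromosome 10 from 62804570 to 62908996, had 3.54 RPKM (379 reads) and 4.57 RPKM (475 reads), a log2 ratio of 0.37 by reads (0.17 to 0.57). *Tet2*, on the minus strand of chromosome 3 from 133463679 to 133545139, had 3.28 RPKM (599 reads) and 4.03 RPKM (715 reads), a log2 ratio of 0.30 by reads (0.14 to 0.46). Each interval was above 0, yet 9.74% of genes of a like level were as high or higher for *Tet3*, 15.7% for *Tet1* and 21.0% for *Tet2*. Within a library, *Tet3* had 0.810 reads for each read of *Dnmt1* in the control and 1.31 in the Bcas2F/-;Vasa-Cre library.

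**Figure D2:**
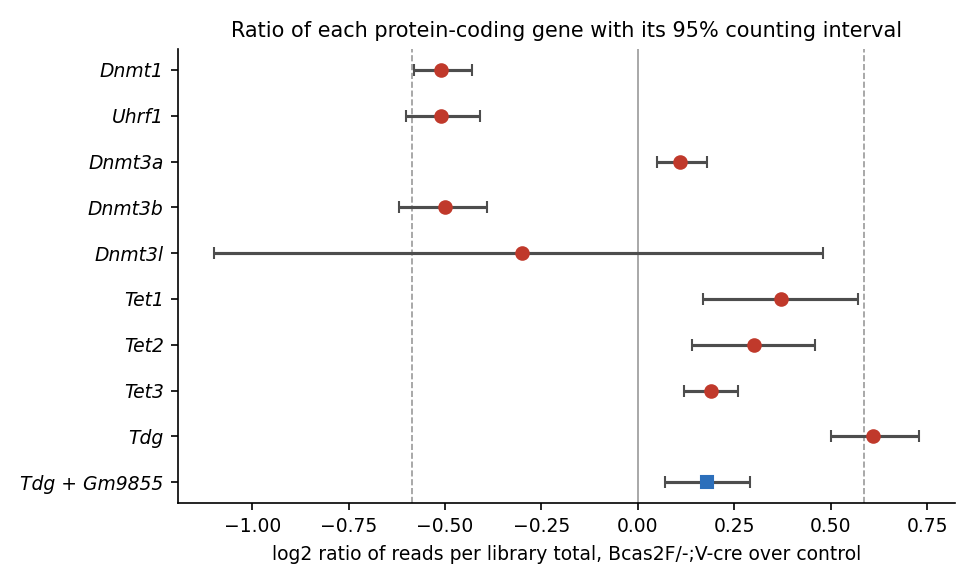
Points give the log2 ratio of reads per library total, Bcas2F/-;Vasa-Cre over control, for the 9 protein-coding genes and for *Tdg* plus *Gm9855*, and bars are 95% counting intervals from 1 library each. Dashed lines mark 1.5-fold. *Dnmt1*, *Uhrf1* and *Dnmt3b* lie together near −0.5, the TET genes and *Dnmt3a* lie between 0.11 and 0.37, and *Tdg* at 0.61 moves to 0.18 once its copy is added.

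The order of the levels depended on the gene length used. The gene length that the RPKM values imply was the rounded mean of the annotated transcript lengths for 5 of the 10 members. For *Dnmt3a*, with 18 annotated transcripts, that length was 2324 bases against 9685 for the longest transcript, a ratio of 4.17. For *Tdg* it was 1227 against 3502, a ratio of 2.85, and for *Dnmt1* it was 5499 against 5870. Genes with many short annotated transcripts therefore stand higher on the RPKM scale.

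By RPKM in the control, *Dnmt3a* came first, followed by *Uhrf1*, *Tdg*, *Dnmt1*, *Tet3*, *Dnmt3b*, *Gm9855*, *Tet1*, *Tet2* and *Dnmt3l*. On the scale of reads per 1000000 counted reads and per kilobase of the longest transcript, *Uhrf1* (32.1, exact Poisson 95% interval 30.8 to 33.4) and *Dnmt1* (32.0, 31.0 to 33.1) led and did not differ beyond counting error. *Dnmt3a* followed at 21.8 (21.2 to 22.5) and *Dnmt3b* at 17.5 (16.7 to 18.4). *Gm9855* (14.7, 13.2 to 16.3), *Tdg* (14.3, 13.4 to 15.2) and *Tet3* (14.0, 13.5 to 14.5) had overlapping intervals, but this place of *Gm9855* rests on its 350 reads, and with 280 or 420 reads its level would be 11.8 or 17.7. *Tet2* at 3.28, *Tet1* at 1.32 and *Dnmt3l* at 0.909 were the lowest.

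In the Bcas2F/-;Vasa-Cre library the first 4 on the scale of the longest transcript lay close together. *Dnmt3a* was at 23.6 (22.9 to 24.3), *Uhrf1* at 22.6 (21.5 to 23.7), *Dnmt1* at 22.5 (21.7 to 23.4) and *Tdg* at 21.8 (20.7 to 23.0), and each interval overlapped that of the next. *Tet3* at 15.9 (15.4 to 16.5) was above *Dnmt3b* at 12.4 (11.6 to 13.1), the reverse of their order in the control. Which transcript these testes make was not resolved by gene-level values. The difference of a gene between the libraries does not depend on its length.

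**Figure D3:**
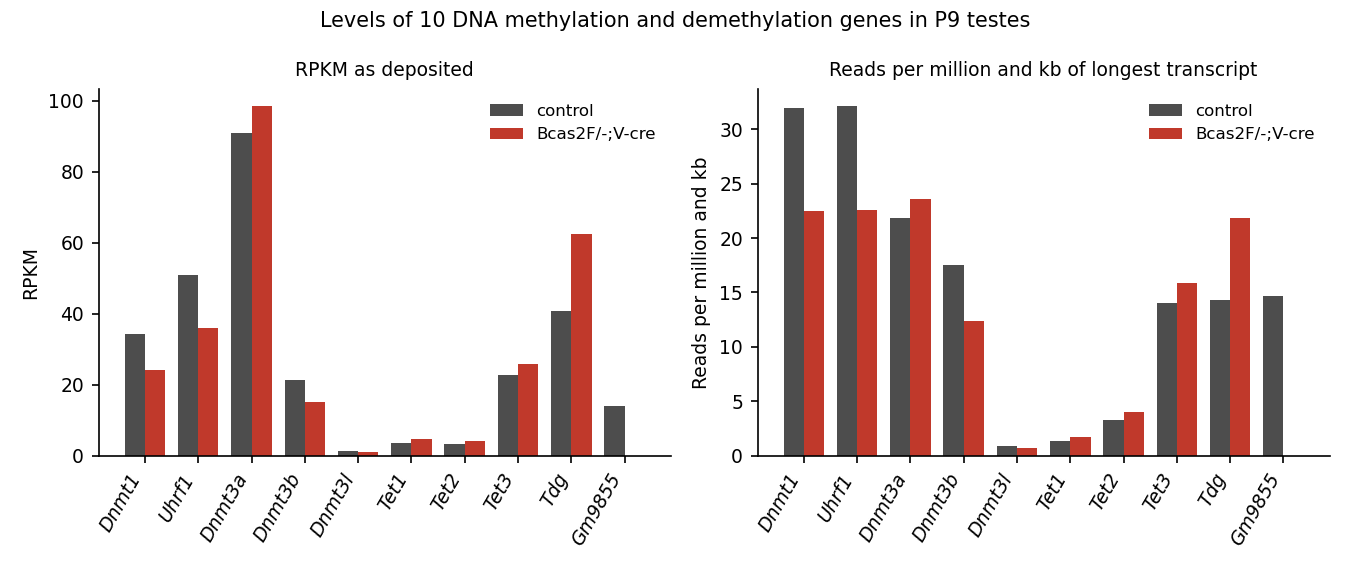
Bars give the level of each of the 10 genes in the control (grey) and the Bcas2F/-;Vasa-Cre library (red), 1 library each, as deposited RPKM on the left and as reads per 1000000 counted reads and per kilobase of the longest annotated transcript on the right. *Dnmt3a* leads on the left at 90.9 RPKM in the control, whereas *Dnmt1* and *Uhrf1* lead on the right at 32.0 and 32.1.

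Germ cell markers were mostly lower and Sertoli cell markers level or higher in the Bcas2F/-;Vasa-Cre library, and these values belong beside every ratio above. Of 12 spermatogonial markers 10 were lower, with a median log2 ratio of −0.38 and a summed level of 814 RPKM in the control and 625 RPKM in the Bcas2F/-;Vasa-Cre library. All 8 markers of meiotic prophase I were lower, with a median of −0.34 and sums of 150 and 113 RPKM. Any lower value was seen for 46.3% of all genes. The meiotic markers ran from *Smc1b* (−1.11) to *Sycp2* (−0.08), *Tex12* (−0.03) and *Spo11* (−0.02). The counting interval lay wholly below 0 for 5 of the 8, against 17.8% of all tested genes with recovered reads. By real-time RT-PCR of replicate P9 testes, the paper reports similar levels of *Nanos2*, *Ddx4* (*Mvh*), *Sohlh1*, *Sohlh2*, *Kit*, *Dazl* and *Stra8* in both genotypes. It reports significantly lower *Dmc1*, *Sycp1*, *Sycp3* and *Smc1b*. Numbers of PLZF-positive spermatogonia were not significantly different in its counts at a later age. Of 8 Sertoli cell markers, 7 passed the minimum level and all 7 had a ratio at or above 0, with a median of 0.11 and sums of 763 and 838 RPKM, while *Rhox5* was listed at 0 in both libraries. Single markers of a list differed. The spermatogonial markers ran from *Nanos3* (−0.99) to *Nanos2* (0.49), and *Sohlh2* (0.20) was the other that was higher. The Sertoli cell markers ran from *Fshr* (0.00), *Gata4* (0.01) and *Cldn11* (0.02) to *Amh* (0.36). The ratios of *Dnmt1*, *Uhrf1* and *Dnmt3b* had the sign of the germ cell medians, and those of *Dnmt3a* and the TET genes had the sign of the Sertoli cell median. The part of cell composition in these ratios was not tested.

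The other cell types differed in direction. All 5 macrophage markers above the minimum level were lower, with a median log2 ratio of −0.23. Medians were −0.10 for endothelial, −0.05 for peritubular myoid and 0.20 for Leydig cell markers. Macrophage, endothelial, myoid and blood medians thus shared the sign of the germ cell medians. The Leydig cell median shared that of the Sertoli cell median. Leydig cell markers summed to 387 RPKM in the control and 431 RPKM in the Bcas2F/-;Vasa-Cre library, peritubular myoid markers to 413 and 382 RPKM, endothelial markers to 36.8 and 34.8 RPKM, macrophage markers to 55.1 and 44.0 RPKM, and blood markers to 843 and 796 RPKM. Of the 7 blood markers 6 were lower, 4 of them past 1.5-fold, with a median log2 ratio of −1.03. Spermatid markers summed to 1.52 and 1.47 RPKM, close to 0, and *Prm1* and *Prm2* had at most 1 read in each library.

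**Figure D4:**
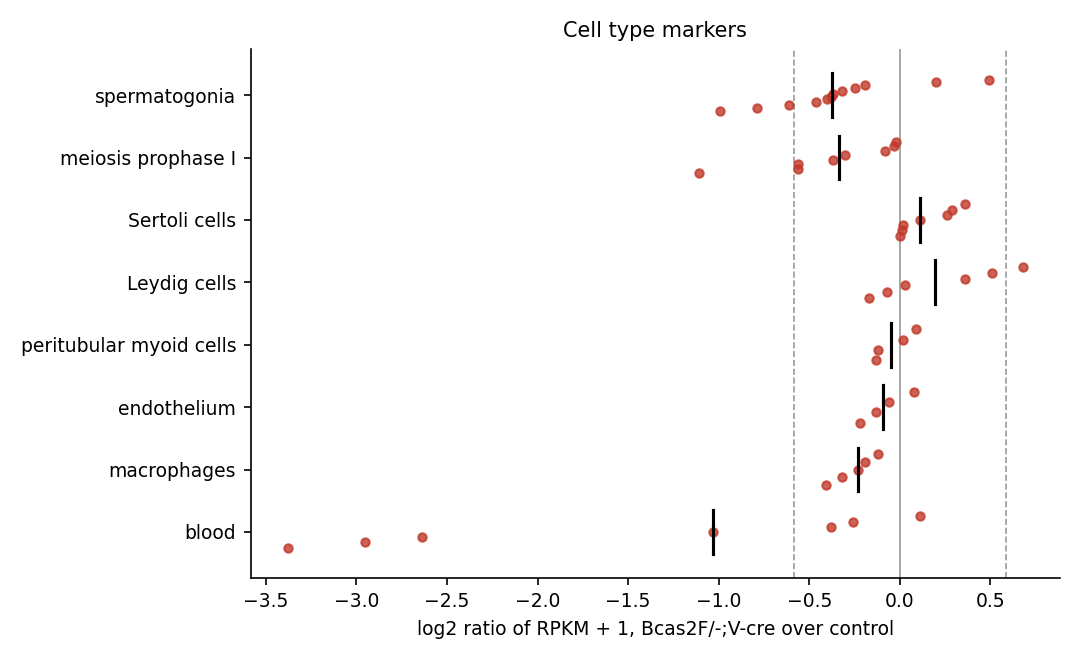
Points give the log2 ratio of RPKM + 1, Bcas2F/-;Vasa-Cre over control, of single marker genes in each cell type, black ticks mark list medians, and dashed lines mark 1.5-fold. Spermatogonial and meiotic markers lie mostly left of 0 (medians −0.38 and −0.34) and Sertoli cell markers at or right of 0 (median 0.11).

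Other genes of the pathway were described from a list of 48, of which 46 passed the minimum level. Of these, 26 were lower and 20 higher, with a median log2 ratio of −0.05. More than 1.5-fold lower were 2 and more than 1.5-fold higher was 1, where all genes gave 1.69% and 1.57%. The counting interval was wholly below 0 for 20 and wholly above 0 for 10, where all genes gave 17.8% and 19.8%. Read numbers were not matched here either.

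Of 11 genes listed as partners of the methyltransferases or for maintenance 8 were lower, where any lower value was seen for 46.3% of all genes. The median of the 11 was −0.09, none was past 1.5-fold lower, and the smallest of the lower ratios was that of *Trdmt1* at −0.02. Whether each listed gene has such a role, *Trdmt1* among them, was not checked here. The most abundant, *Trim28*, a corepressor that guards imprinted methylation, had 317 RPKM in the control and 299 RPKM in the Bcas2F/-;Vasa-Cre library (log2 ratio −0.09). The gene past 1.5-fold was *Dppa3*, which encodes an inhibitor of UHRF1, with 1.19 RPKM (18 reads) and 4.01 RPKM (59 reads) and a counting interval of the log2 ratio of reads from 0.97 to 2.61. Other genes of this role are named after their values were seen. *Hells*, a chromatin remodeller needed for methylation, had 184 and 124 RPKM (log2 ratio −0.57), and its partner *Cdca7* had 127 and 93.6 RPKM (−0.43). *Pcna*, the sliding clamp of DNA replication, had 185 and 142 RPKM (−0.38), and the DNA ligase gene *Lig1* had 62.9 and 51.7 RPKM (−0.28). The ratios of *Cdca7l* (−0.14) and *Usp7* (−0.07) were closer to 0. *Uhrf2*, the paralogue of *Uhrf1*, had 38.2 and 42.2 RPKM (0.14), on the other side of 0 from *Uhrf1*.

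Genes that guide methylation to retrotransposons in the male germ line had the lowest median of the 5 roles, −0.50, with 5 of 6 lower. Any lower value was seen for 46.3% of all genes. Low medians were not particular to this role, as spermatogonial and meiotic markers had medians of −0.38 and −0.34. *Morc1*, a germ cell ATPase needed for retrotransposon silencing, had 16.8 RPKM (1021 reads) in the control and 5.97 RPKM (352 reads) in the Bcas2F/-;Vasa-Cre library. Its log2 ratio was −1.35 by RPKM + 1, with a counting interval by reads from −1.67 to −1.32, and 0.258% of the genes of its level were as low. *Spocd1*, which links piRNAs to de novo methylation, had 5.58 RPKM (138 reads) and 2.96 RPKM (71 reads), a log2 ratio of −0.73. *Mael*, a piRNA pathway gene and the most abundant of the role, had 141 and 99.5 RPKM (−0.50). The log2 ratio was −0.49 for *Piwil4* and −0.14 for *Piwil2*. The log2 ratio of *Morc1* was below those of all 9 protein-coding members, whereas *Dnmt3c* of the same role had a log2 ratio of 0.00.

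Readers, repair genes and the methyl donor cycle lay near 0. Of 8 readers of methylated DNA 2 were lower and 6 higher, with a median of 0.08, and the most abundant, *Mbd3*, had 78.9 RPKM in the control and 70.2 RPKM in the Bcas2F/-;Vasa-Cre library. Of 16 base excision repair and deamination genes above the minimum 9 were lower and 7 higher, with a median of −0.07. The most abundant of them, *Parp1*, had 3830 reads in the control and 3209 in the Bcas2F/-;Vasa-Cre library (log2 ratio −0.21). The lowest and highest ratios of this role, named after they were seen, were those of the uracil glycosylase gene *Ung* (51.1 and 36.7 RPKM, −0.47) and of the glycosylase gene *Neil2* (6.42 and 9.40 RPKM, 0.49). Of 5 genes of the methyl donor cycle 2 were lower and 3 higher, with a median of 0.09. *Mat2a*, which makes S-adenosylmethionine, had 190 and 206 RPKM.

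**Figure D5:**
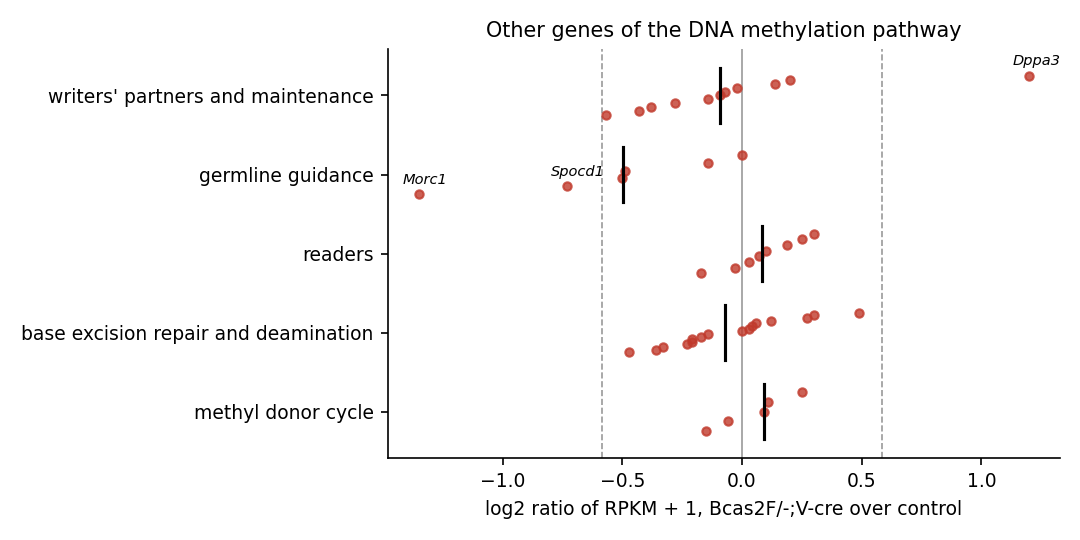
Points give the log2 ratio of RPKM + 1, Bcas2F/-;Vasa-Cre over control, of 46 pathway genes in 5 roles, black ticks mark medians, and dashed lines mark 1.5-fold. *Morc1* at −1.35, *Spocd1* at −0.73 and *Dppa3* at 1.20 lie outside the dashed lines.

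The promoters of the genes were compared for 1 sequence feature, the E2F site, which is known from promoters of genes for DNA replication. The feature was chosen after the ratios were seen. RefSeq promoter windows of GRCm38.p6, of 300 bases with 250 before and 50 after a gene start, were searched on both strands for TTTCCCGC, TTTGGCGC, TTTCGCGC and TTTGCCGC, forms of the E2F site. At least 1 window held a match for 704 of 27025 genes (2.60%), and for 446 of the 7772 genes (5.74%) with 20 or more CpG dinucleotides in a window. Of the 9 members with a window, *Gm9855* having none, 7 were CpG-rich by this limit. Matches were found for 2, *Dnmt1* in 1 of 3 windows and *Uhrf1* in 1 of 2, and among partners and maintenance genes for 3 of 10, *Hells*, *Cdca7* and *Lig1*, while *Pcna* had none. In the other roles 1 of 15 repair and deamination genes (*Nthl1*), 0 of 2 germline guidance genes, 0 of 5 readers and 0 of 4 genes of the methyl donor cycle held a match. *Dnmt3b* had no match in its window, although its ratio was like that of *Dnmt1*.

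Stretches upstream of the RefSeq starts are shown to let the match be read in its setting, 5′ to 3′ on the strand of the gene, with the match in capitals. They lie at chr9:20952824-20952853, chr17:56304117-56304146, chr19:38930917-38930946 and chr2:72476137-72476166, and the *Dnmt1* and *Cdca7* matches are on the opposite strand.
Dnmt1: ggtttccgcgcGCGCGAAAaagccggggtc
Uhrf1: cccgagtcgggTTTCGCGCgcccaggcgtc
Hells: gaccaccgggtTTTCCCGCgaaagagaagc
Cdca7: tgcgtcccggcGCGGGAAAgccggtggccc
Such a match is a description of letters, and binding was not measured.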

How the data were processed

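RNA-seq was performed by the authors on whole P9 testes, 1 library from control and 1 from Bcas2F/-;Vasa-Cre males. The authors removed adaptors and low-quality reads, aligned reads with TopHat2 2.0.9 to mm10 (submitters' processing notes), used HTSeq for gene counts and deposited these as RPKM, 39695 entries in each library. The annotation release and the gene lengths are not given in the sources used here. RPKM does not correct for differences in RNA composition.

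Identifiers were matched to GENCODE M21 (37692 entries, 95.0%). Log2 ratios of RPKM + 1 were computed where the mean RPKM was 1 or more. With 1 library per group no test was run. Library totals were inferred from genes with 1 annotated transcript, as the most frequent total at which such a gene would hold 1 read. In the control 1319 of 6582 such genes above 0 gave that total, and in the Bcas2F/-;Vasa-Cre library 1329 of 6626. Whole reads were recovered by searching gene lengths from 0.5 times the shortest transcript to 2 times the merged exons for whole numbers in both libraries (tolerance 0.0001), taking the length nearest the mean transcript. A length was found for 24186 of 24234 matched entries above 0 (99.8%), 13281 of them at the annotated mean length. The recovered reads summed to 100.39% of the inferred total in the control and 100.15% in the Bcas2F/-;Vasa-Cre library. Some recovered numbers are therefore too high. Clopper-Pearson and Poisson intervals cover counting error only. Transcripts of other genes were matched to the members with BLAST+ 2.17.0, at 90% identity over 50% of their length. Of 68 genes found, 62 with under 300 aligned bases were set aside, a limit chosen after seeing the data. Scripts used Python 3.11.15, numpy 2.4.6, scipy 1.17.1 and pandas 2.3.3 and were tested on simulated data.

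The members and lists were chosen with earlier results of these data known. All 10 members, *Bcas2*, pathway genes past 1.5-fold, the most abundant gene of each role and gene copies were named by rule, and other genes after seeing their values. Alternatives were other pseudocounts, scalings and minimum levels. Protein sequences were not used here.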

Additional observations from a re-analysis of the deposited data

How the results depend on the processing

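The number of members past 1.5-fold was 2 under every pseudocount (0.1 and 0.01), scaling (median of all genes at 0, or each library's RPKM summing to 1000000) and minimum tried, and the log2 ratio of summed *Tdg* and *Gm9855* stayed between 0.17 and 0.22. With the minimum raised to a mean RPKM of 5, the median log2 ratio of the members was −0.48 over 7 genes instead of −0.03 over 10, since *Dnmt3l*, *Tet1* and *Tet2* drop out, and the number of pathway genes past 1.5-fold was 1 instead of 3. That number was 4 with a pseudocount of 0.01 and with the median of all genes at 0. Of 40 alternatives for single members, 36 moved by less than counting error and 0 changed sign. A pseudocount cannot change the sign of a ratio, and each scaling acts on all genes alike, so the unchanged signs are no check. The 4 others were those of *Gm9855*. Its counting interval has no lower limit because it is listed at 0 in 1 library, so any shift was counted as a move. Its log2 ratio of −3.90 became −7.13 and −10.44 with pseudocounts of 0.1 and 0.01, −4.51 with rescaled sums and −3.91 with the median at 0. No paired analysis was possible because each group has 1 library, and no library could be left out. Depth limits *Dnmt3l*, and the spread between animals is unknown for every gene.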
